A study of Mus musculus with 3 samples.

Results

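The 9 receptor genes described here, of 31053 listed in the files, were chosen by name: the receptor kinases Alk, Ret, Ntrk2, Ntrk3 and Kit, the neurotrophin receptor Ngfr, which has no kinase, and the GDNF family co-receptors Gfra1, Gfra2 and Gfra3. They were followed by single-cell RNA-seq in 5650 kept cells of 3 whole tumors of the TH-MYCN mouse, in which the tyrosine hydroxylase (TH) promoter drives MYCN in cells of the sympathetic lineage. All 3 mice were heterozygous for the transgene. Tumors 1, 2 and 3 came from mice aged 62, 79 and 63 days, 1 tumor per mouse, and form a single group. Comparisons were therefore made between cell classes, and no test was made between tumors.

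Neuroblastoma arises from the neural crest lineage of sympathetic neurons and adrenal chromaffin cells, where receptor kinases carry growth and survival signals. ALK is activated by ALKAL1 and ALKAL2 and is the kinase most often mutated in human neuroblastoma. RET is engaged by GDNF, neurturin or artemin once these are held by the co-receptors GFRA1, GFRA2 and GFRA3, respectively. NTRK2 is the receptor of BDNF and neurotrophin-4, NTRK3 that of neurotrophin-3, and NGFR binds all neurotrophins. KIT binds stem cell factor, encoded by Kitl, and is best known from mast cells, blood progenitors and melanocytes.

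On the mm10 build, the annotation places the 5 kinase genes, all protein coding, at chr17:71868972-72604627 (Alk, minus strand), chr6:118151745-118197718 (Ret, minus), chr13:58806569-59133970 (Ntrk2, plus), chr7:78175959-78738012 (Ntrk3, minus) and chr5:75574916-75656722 (Kit, plus). Reads were captured near the 3′ end of transcripts, so that mutations and transcript forms of these genes were not measured.

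Each captured molecule carried a unique molecular identifier (UMI). Tumors 1, 2 and 3 gave 1914, 1221 and 2515 kept cells with median depths of 4282.5, 1594 and 1816 UMIs. Of 21 clusters, all but 1 were named from marker genes, and 6 clusters with 3369 cells were tumor-like, with 360, 903 and 2106 cells from tumors 1, 2 and 3. Tumor-like cells of tumor 1 were shallow, with a median of 925.5 UMIs. The fibroblast-like cluster of 87 cells met all 7 fibroblast markers and all 7 perivascular markers. No cluster was mast-like, Schwann-like or like blood progenitors. Tumors 1 and 2 shared 3 cell barcodes, tumors 2 and 3 shared 1, and tumors 1 and 3 shared 0.

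Transcripts of tumor cells were also found in the other classes, and far more so in tumors 2 and 3. Of the 9 tumor-like naming markers, such as Dbh and Th of catecholamine synthesis, the 8 other than Hand1 stood in all other named cells at 1.51% to 8.89% of their tumor-like level in tumor 1. The 8.89% was that of Gata3 alone, and the next highest marker, Stmn2, stood at 2.27%. In tumor 2 the 8 markers stood at 31.1% to 46.1% and in tumor 3 at 30.3% to 46.9%. A receptor level outside tumor-like cells is therefore given per tumor and beside these values. The part of free RNA in each receptor level was not tested.

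The receptors were sparse. The kept cells held 363 UMIs of Gfra3, 154 of Kit, 102 of Ret, 84 of Ntrk3, 64 of Ntrk2, 43 of Gfra2, 14 of Ngfr, 11 of Alk and 2 of Gfra1. Of the 3369 tumor-like cells, 461 (13.7%) held a UMI of at least 1 of the 9 genes, and 36 held UMIs of more than 1 of them. The cells with a receptor UMI were deeper, with a median of 2028 UMIs against 1592. Levels below are given in CPM, the UMIs of a gene per 1000000 UMIs of a class in a tumor, with exact 95% Poisson intervals, which cover counting error only. Fewer expressing cells and less RNA per cell cannot be told apart in such a level, and levels of different genes are not ranked.

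**Figure D1:**
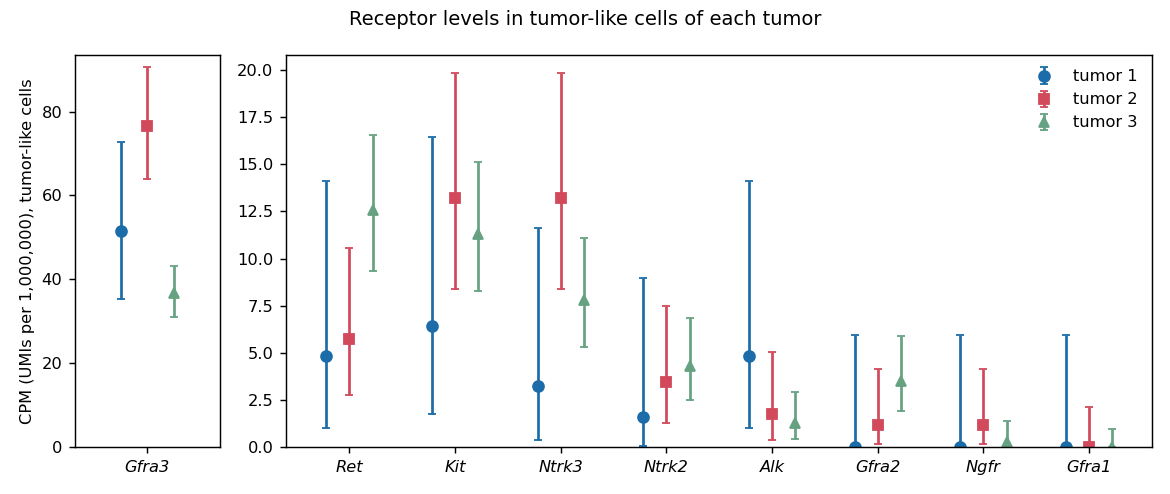
Level of each receptor in tumor-like cells, in CPM on linear axes that start at 0. Each point is 1 of tumors 1 to 3 and bars are exact 95% Poisson intervals; Gfra3, on an axis of its own, lies between 36.7 and 76.5, and all 3 Gfra1 points lie at 0.

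Gfra3, which presents artemin to RET, gave the most UMIs of the 9 genes in tumor-like cells. Its level there was 51.5 CPM in tumor 1 (95% interval 35.2 to 72.7), 76.5 in tumor 2 (64.0 to 90.6) and 36.7 in tumor 3 (31.0 to 43.2), from 32, 133 and 146 UMIs. In all other named cells it was 0.594 in tumor 1, 24.5 in tumor 2 and 16.2 in tumor 3, from 7, 24 and 20 UMIs. Tumor-like cells were thus higher in each tumor, by 86.7-fold, 3.13-fold and 2.26-fold. Among sums of at least 10 cells, single classes came close to or above the tumor-like level, with 70.6 in plasma cell-like cells of tumor 2 from 5 UMIs and 67.2 in neutrophil-like cells of tumor 3 from 3 UMIs. No cell outside the tumor-like class held more than 2.

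Gfra3 was also set against the naming markers inside and outside the tumor-like cells. Per 1000 UMIs of the 9 markers, tumor 2 held 32.1 Gfra3 UMIs in tumor-like cells (26.9 to 38.1) and 29.1 in the other cells (18.7 to 43.3). In tumor 3 the values were 14.4 (12.1 to 16.9) and 15.6 (9.54 to 24.1). In tumor 1 they were 20.2 (13.8 to 28.5) and 10.4 (4.18 to 21.4). The intervals overlapped in each tumor, with 7 Gfra3 UMIs behind the value of the other cells in tumor 1.

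In the edgeR quasi-likelihood fit over sums per class and tumor, Gfra3 was at a log2 difference of 3.18 (SE 0.96, adjusted p = 0.0541) between tumor-like cells and the mean of the other classes. Of the 9 receptors, Gfra3 and Kit passed the filter on low counts, and 0 of these 2 were called, where 3.30% of 8211 genes were called higher. Both had an unadjusted p under 0.05 in edgeR, and DESeq2 called neither, with an adjusted p of 0.0584 for Gfra3. With the tumor as a replicate block, edgeR called Gfra3 higher by 3.25 (SE 0.68, adjusted p = 0.00148), beside 12.5% of all genes. Over 18 alternatives the log2 difference ranged from 1.11 to 5.18 and passed the threshold in 14, among them fits without the filter, whose tumor-like calls are not used as support here. Against all other named cells of a tumor pooled into 1 sum, edgeR gave 2.02 (adjusted p = 0.149). Without tumor 1, Gfra3 did not pass the filter, and without the filter its edgeR difference was 1.11 (adjusted p = 0.0534).

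In tumor 1 a few deep cells held much of the Gfra3 signal. There, 4 tumor-like cells of 16494 to 37710 UMIs held 19 of the 32 Gfra3 UMIs, and without them the level was 25.8 (13.7 to 44.1). In tumor 2, 5 cells held 18 of 133 UMIs, and the level without them was 68.1 (56.2 to 81.7). With each cell thinned to 500 UMIs, 2.10% ± 0.614 (SD, n = 3 tumors) of tumor-like cells held a Gfra3 UMI. The share in macrophage-like cells was 0.187% ± 0.324. Unthinned, the shares were 7.61% ± 3.98 and 2.90% ± 2.95, at median depths of 925.5, 1547 and 1810.5 UMIs in tumor-like and 8824, 2826.5 and 3058 UMIs in macrophage-like cells of tumors 1, 2 and 3.

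The genes whose level over the 29 sums of class and tumor was most like that of Gfra3, among 8209 genes, were Zcchc12 (Pearson r = 0.875), Fez1 (r = 0.865), which acts in axon growth, and Stmn4 (r = 0.864), a neuronal member of the stathmin family. The sums share libraries and depth, and the values are a description. Tumor-like cells held 376 of 434 Zcchc12 UMIs, 810 of 936 Fez1 UMIs and 1312 of 1486 Stmn4 UMIs.

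Ret, the kinase that GFRA co-receptors engage, gave 63 UMIs in tumor-like cells, 50 of them in tumor 3. Its tumor-like level was 4.83 CPM in tumor 1 (0.995 to 14.1), 5.75 in tumor 2 (2.76 to 10.6) and 12.6 in tumor 3 (9.34 to 16.6). In all other named cells it was 2.80 (1.93 to 3.93), 2.04 (0.247 to 7.36) and 3.25 (0.885 to 8.32). The intervals did not overlap in tumor 3 and did in tumors 1 and 2. The share of tumor-like cells with a Ret UMI stood below or above that of macrophage-like cells depending on the setting. Each gap was smaller than the SD of the macrophage-like share. Thinning was a single random draw, and cells under 1000 UMIs were left out at 1000 UMIs. The share was 0.264% ± 0.287 (SD, n = 3 tumors) against 0.375% ± 0.649 at 500 UMIs per cell. At 1000 UMIs it was 0.729% ± 0.151 against 0.527% ± 0.511. It was 1.21% ± 0.790 against 0.769% ± 0.526 in corrected counts and 1.35% ± 0.932 against 1.14% ± 1.05 unthinned. Of the 264 tumor-like cells with a Gfra3 UMI, 6 (2.27%) also held a Ret UMI, against 1.80% of the other tumor-like cells.

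Outside tumor-like cells, most Ret UMIs came from a single cell. The fibroblast-like cells of tumor 1 held 24 Ret UMIs, of which 20 lay in a cell of 27274 UMIs with all 7 fibroblast markers. Fibroblast-like cells of tumors 2 and 3 held 0. Without the filter on low counts, edgeR gave Ret a log2 difference of 3.76 in fibroblast-like cells (adjusted p = 0.000236). Without that cell it was 1.61 (adjusted p = 0.527), and without tumor 1 it was -1.54, with no call.

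Of the other GDNF family co-receptors, Gfra1, which presents GDNF, had 0 UMIs in tumor-like cells, which allows a level of up to 0.473 CPM. Its 2 UMIs lay in an erythroid-like and a mesothelial-like cell of tumor 2. Gfra2, which presents neurturin, had 0, 2 and 14 UMIs in tumor-like cells of tumors 1, 2 and 3, or 0, 1.15 (0.139 to 4.15) and 3.52 CPM (1.93 to 5.91). Tumor-like cells of tumor 1 thus held 0 UMIs of both genes.

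Gfra2 was found in NK cell-like cells, where 5 of 34 cells of tumor 1 and 1 of 9 cells of tumor 3 held 1 UMI each. The level in tumor 1, the only tumor with at least 10 of these cells, was 28.2 CPM (9.14 to 65.7). Without the filter, edgeR called Gfra2 higher in NK cell-like cells by 5.36 on the log2 scale (SE 1.29, adjusted p = 0.00224), where Gfra2 alone of the 9 receptors was called, beside 2.34% of 19649 genes. The NK cell-like class has 1 sum, so that the spread in this test comes from other classes. Of 9 alternatives, 4 kept the call. In macrophage-like cells of tumor 1, 2 deep cells held 7 of the 8 Gfra2 UMIs.

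**Figure D2:**
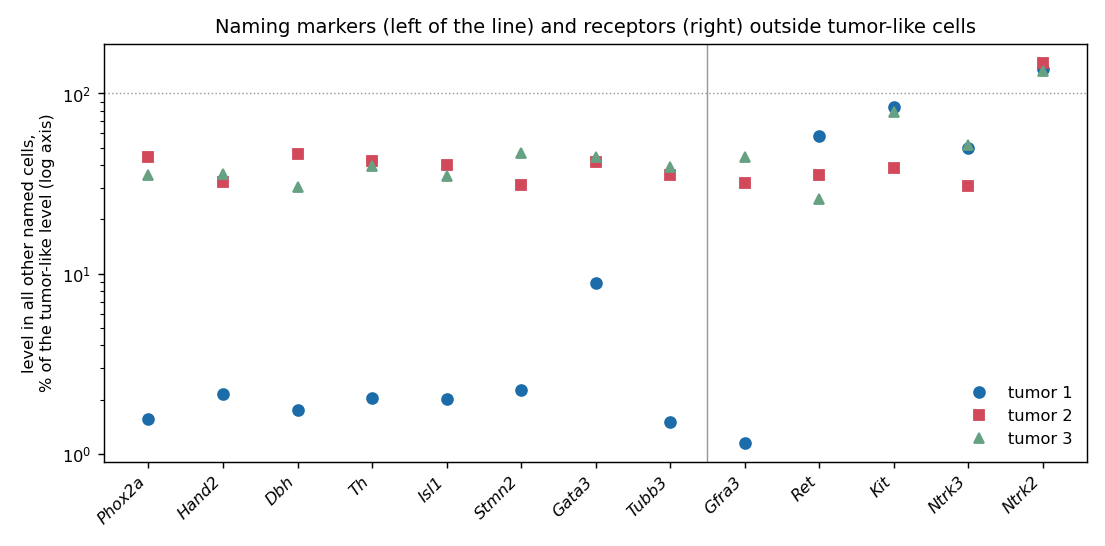
Level of 8 tumor-like naming markers (left of the line) and of 5 receptors (right) in all other named cells, as a percentage of the tumor-like level in the same tumor, on a log axis, with 1 point per tumor. In tumor 1 Gfra3 stands at 1.15%, near the markers, while Ret, Ntrk2, Ntrk3 and Kit stand at 50.1% to 137%. The tumor-like levels of these 4 rest on 3, 1, 2 and 4 UMIs. In tumor 2 Gfra3, Ret, Ntrk3 and Kit stand at 32.0%, 35.4%, 30.8% and 38.5%, beside markers at 31.1% to 46.1%. In tumor 3 they stand at 44.2%, 25.8%, 52.1% and 78.9%, beside markers at 30.3% to 46.9%. Ntrk2 stands at 148% in tumor 2 and 133% in tumor 3.

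Ntrk2 and Ntrk3, the kinases for BDNF and neurotrophin-3, had their highest class level in fibroblast-like cells in each tumor. Ntrk2 was at 26.5 CPM in fibroblast-like cells of tumor 1 (17.2 to 39.2), 26.0 in tumor 2 (3.15 to 94.0) and 40.1 in tumor 3 (13.0 to 93.5), from 25, 2 and 5 UMIs. In tumor-like cells it was at 1.61 (0.0407 to 8.96), 3.45 (1.27 to 7.51) and 4.28 (2.49 to 6.85), from 1, 6 and 17 UMIs. The intervals were apart in tumors 1 and 3 and overlapped in tumor 2. In tumor 1, 22 of the 25 UMIs lay in 1 cell of 31579 UMIs, and in tumor 3, 4 of the 5 lay in 1 cell. Both cells had all 7 fibroblast markers.

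Ntrk3 was at 12.7 CPM in fibroblast-like cells of tumor 1 (6.58 to 22.2), 39.0 in tumor 2 (8.05 to 114) and 24.0 in tumor 3 (4.96 to 70.2), from 12, 3 and 3 UMIs in 5, 2 and 3 cells. In tumor-like cells it was at 3.22 (0.390 to 11.6), 13.2 (8.38 to 19.8) and 7.80 (5.30 to 11.1), from 2, 23 and 31 UMIs. Fibroblast-like cells were higher in each tumor, with intervals that overlapped in each. Against all other named cells together, tumor-like cells were higher for Ntrk3 in tumors 1, 2 and 3, where the others stood at 1.61, 4.08 and 4.06 CPM. For Ntrk2 they were lower, at 0.729-fold, 0.677-fold and 0.752-fold. In tumors 1 and 3, a single fibroblast-like cell held 22 of the 26 and 4 of the 7 Ntrk2 UMIs of the others. With all 3 tumors added up, tumor-like cells were higher for Ntrk2, at 1.40-fold.

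Neither gene passed the filter on low counts. Without it, edgeR called Ntrk2 higher in fibroblast-like cells by 5.81 on the log2 scale (SE 0.87, adjusted p = 6.15e-10) and Ntrk3 by 4.82 (SE 0.95, adjusted p = 7.15e-06). In that fit 4 of the 9 receptors, Ret, Ntrk2, Ntrk3 and Gfra2, were called in fibroblast-like cells, beside 12.6% of 19649 genes. The richest Ntrk3 cell, with 5 UMIs, had 4 of 7 fibroblast markers and all 7 perivascular markers. Without its richest cell, Ntrk2 was higher by 4.91 (adjusted p = 5.03e-05) and Ntrk3 by 4.56 (adjusted p = 9.17e-05), while Gfra2 was at 2.86 (adjusted p = 0.0528). DESeq2 without the filter did not call Ntrk2 (adjusted p = 0.225) or Ntrk3 (adjusted p = 0.120). Such log2 values depend on the prior count, since 18 of the 26 sums outside tumor-like cells held 0 Ntrk2 UMIs and 16 held 0 Ntrk3 UMIs.

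Ngfr, which binds all neurotrophins, gave 0, 2 and 1 UMIs in tumor-like cells, or 0, 1.15 (0.139 to 4.15) and 0.252 CPM (0.00637 to 1.40). Its other 11 UMIs were spread over 5 classes, with 3 each in fibroblast-like and B cell-like cells, 2 each in mesothelial-like and plasmacytoid dendritic-like cells and 1 in a macrophage-like cell. A difference between these classes was not detectable at this depth. The 5 cells with at least 3 of 8 Schwann cell markers, a cell type known for NGFR, held 0 Ngfr UMIs. They held 4 UMIs of Gfra3 and 3 of Ntrk2, and their identity was not tested.

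Kit had its highest class level in endothelial-like cells of tumors 1 and 3. The level was 87.6 CPM in tumor 1 (62.8 to 119), 10.5 in tumor 2 (0.265 to 58.3) and 41.0 in tumor 3 (13.3 to 95.7), from 41 UMIs in 13 of 44 cells, 1 UMI in 16 cells and 5 UMIs in 2 of 33 cells. In tumor-like cells it was 6.44 (1.75 to 16.5), 13.2 (8.38 to 19.8) and 11.3 (8.26 to 15.1), from 4, 23 and 45 UMIs. Endothelial-like cells were thus above tumor-like cells in tumors 1 and 3, with intervals apart in tumor 1, and not in tumor 2. In tumor 2, plasma cell-like cells were highest, at 42.3 CPM, and B cell-like cells were at 39.9, each from few UMIs. In tumor 1, 5 cells held 31 of the 41 UMIs, and each of them also held UMIs of Cdh5, the endothelial cadherin.

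In edgeR, Kit was higher in endothelial-like cells than in the mean of the other classes by 4.57 on the log2 scale (SE 0.77, adjusted p = 0.000114). Of the 2 tested receptors only Kit was called in endothelial-like cells, where 12.0% of 8211 genes were called higher. The difference ranged from 3.58 to 5.35 over 16 alternatives, of which 15 kept the call, DESeq2 among them (3.59, adjusted p = 0.0188). Without tumor 1, Kit did not pass the filter, and without the filter its edgeR difference was 3.58 (adjusted p = 0.0737). In tumor-like cells, the edgeR difference of Kit was 1.86 (SE 0.83, adjusted p = 0.176), and against the pooled other cells it was 0.50 (adjusted p = 0.325).

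A few other cells held several Kit UMIs. In tumor 1, all 4 Kit UMIs of the T cell-like cluster lay in 1 cell that held 13 UMIs of Il7r, 4 of Tnfsf11 and UMIs of 1 of 7 T cell markers. The 2 cells with at least 3 of 6 mast cell markers held 0 Kit UMIs, and the 6 cells with at least 3 of 6 blood progenitor markers held 2. These 6 cells also held 22 Ntrk2 UMIs, all of them in the richest fibroblast-like cell of tumor 1, which met this marker rule too. The identity of the other cells was not tested.

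**Figure D3:**
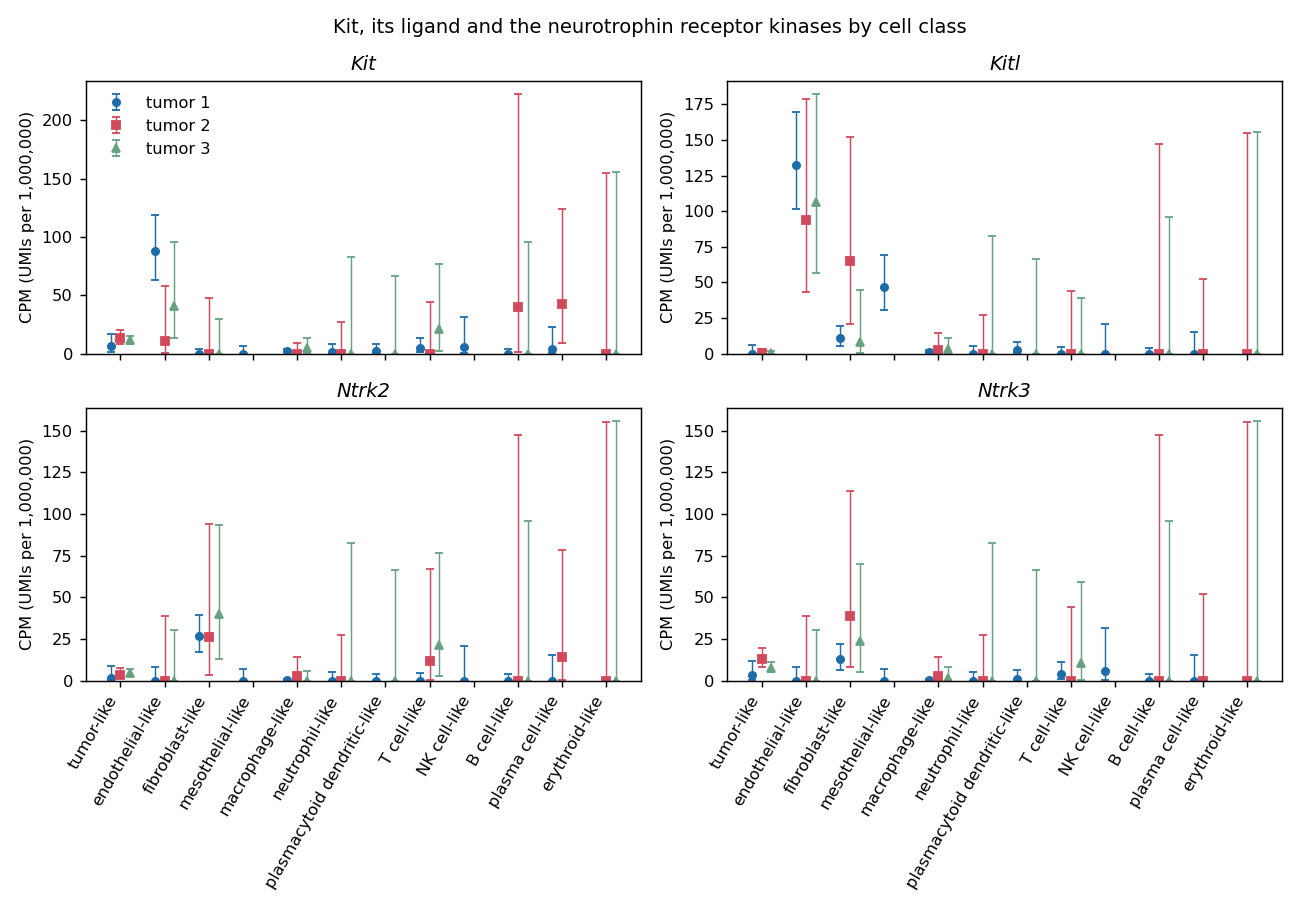
Kit, its ligand gene Kitl, Ntrk2 and Ntrk3 by cell class, in CPM on linear axes that start at 0, with 1 point per tumor and exact 95% Poisson intervals; sums of fewer than 10 cells are left out. Kitl stands at 94.1 to 132 in endothelial-like cells, and Ntrk2 at 26.0 to 40.1 in fibroblast-like cells.

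Alk was found in tumor-like cells alone among the named classes. It gave 3, 3 and 5 UMIs in tumors 1, 2 and 3, each in a different cell, or 4.83 (0.995 to 14.1), 1.72 (0.356 to 5.04) and 1.26 CPM (0.408 to 2.94). The 2155 other named cells held 0. Over all 3 tumors, the tumor-like level of 1.74 was at least 8.10-fold higher than the 0.214 that 3 UMIs would give over all other named cells, most of whose UMIs came from tumor 1. In tumors 2 and 3, 3 UMIs in the other cells would have given 3.06 and 2.44, above the tumor-like level, so that no bound can be given there. The authors' corrected values do not list Alk in any tumor.

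The tumor-like clusters were formed without these receptors and their pathway genes, and their receptor levels varied. Cluster 7 had 14, 103 and 152 cells of tumors 1, 2 and 3. Its leading genes were, in order, C130073E24Rik, Pde10a, 5330434G04Rik, Gm16141, Nespas, Epha5, Adgrb3, Adarb2, Gria2 and B830012L14Rik. Its Gfra3 level was 161 CPM in tumor 1 (101 to 244), where its 14 cells held 22 of 32 UMIs, 156 in tumor 2 (115 to 207) and 34.5 in tumor 3 (18.4 to 59.1). It was highest in tumors 1 and 2. In tumor 3 it was lower than clusters 11, 2, 0 and 1, which were at 61.6 (32.8 to 105), 40.8, 37.5 and 35.6. Sums of fewer than 20 cells stayed out of the test, in which edgeR gave Gfra3 a log2 difference of 1.02 in cluster 7 (adjusted p = 0.187). Gfra3 alone of the 9 receptors passed the filter there, and it was not called, beside 7.30% of 6641 genes called higher. DESeq2 did not call Gfra3 either (adjusted p = 0.366). The unadjusted p of Gfra3 was 0.0332 in edgeR, and without tumor 2, which leaves cluster 7 with 1 sum and takes the spread from other clusters, the difference was -0.03.

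Kit and Ntrk3 were highest in cluster 7 in tumors 2 and 3. Kit was at 36.5 CPM (18.2 to 65.3) and 29.2 (14.6 to 52.3), from 11 UMIs in each, and the next cluster of each tumor was at 30.2 (11.1 to 65.8) and 11.7 (5.03 to 23.0). Without the filter, edgeR called Kit higher in cluster 7 by 1.85 on the log2 scale (SE 0.55, adjusted p = 0.0226), beside 4.41% of 16366 genes. That fit gave smaller p-values, as for Gfra3 in cluster 7, at 0.99 with an unadjusted edgeR p of 0.00350. It was not tried on simulated counts, so that its calls are not used as support. Ntrk3 was at 29.9 (13.7 to 56.7) and 21.3 (9.18 to 41.9), from 9 and 8 UMIs, with an edgeR difference of 1.73 (adjusted p = 0.0822). With the replicate block, also without the filter, edgeR called Ntrk3, at 1.57 (adjusted p = 0.0338), beside 7.53% of genes. Median depth was 2175 UMIs in cluster 7 and ranged from 1318 to 2646.5 over the 6 clusters.

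Ret was at 37.9 CPM in cluster 11 of tumor 3 (16.4 to 74.6), from 8 UMIs, and at 26.6 in cluster 7 (12.7 to 48.9). The other 4 clusters of tumor 3 were at 6.05 to 18.9. Tumor 2 had another order, with cluster 0 highest at 9.68, cluster 7 at 6.64 and cluster 11 at 5.04, from 3, 2 and 1 UMIs and with intervals that overlapped. Of the 65 tumor-like cells with a Kit UMI, 11 (16.9%) held a Gfra3 UMI, against 7.66% of the other tumor-like cells. The cells with a Kit UMI were deeper, with a median of 2205 against 1631 UMIs, and the part of depth in this gap was not tested.

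**Figure D4:**
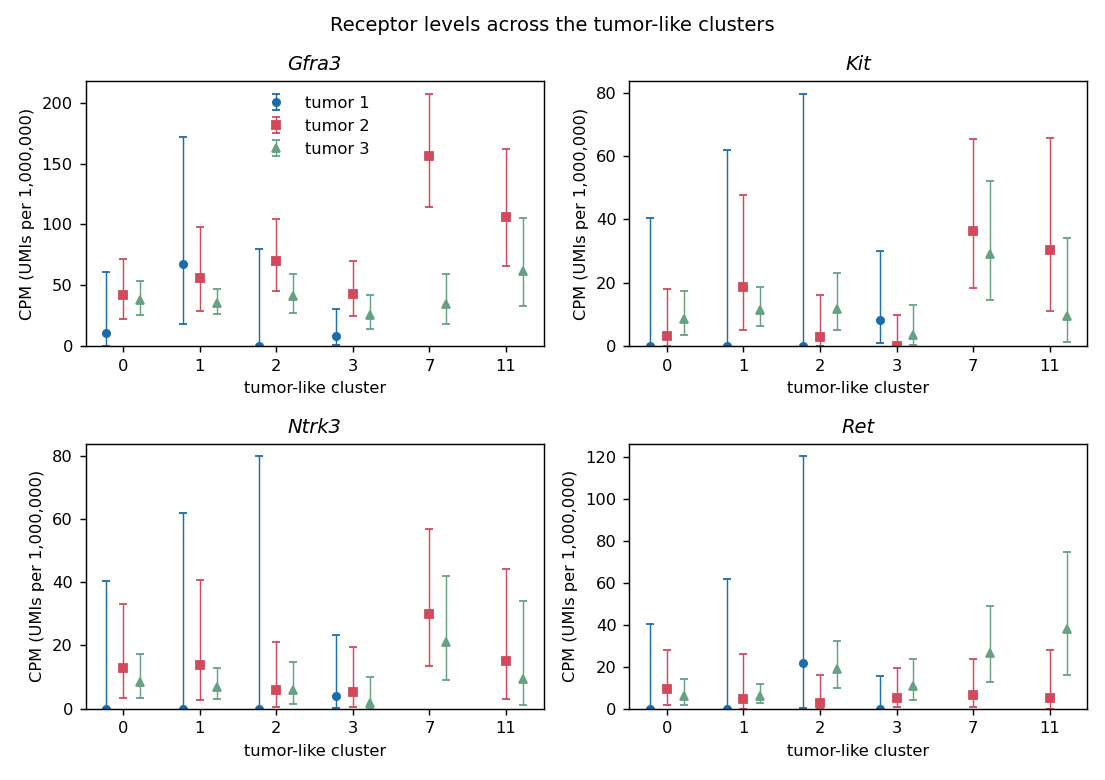
Gfra3, Kit, Ntrk3 and Ret in the 6 tumor-like clusters, in CPM with exact 95% Poisson intervals and 1 point per tumor; sums of fewer than 20 cells are left out, which removes tumor 1 from clusters 7 and 11. Kit reaches 36.5 and 29.2 in cluster 7 of tumors 2 and 3.

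The ligand of KIT came mainly from endothelial-like cells. Kitl was at 132 CPM there in tumor 1, 94.1 in tumor 2 and 107 in tumor 3, from 62, 9 and 13 UMIs. Tumor-like cells held 3 of all 141 Kitl UMIs. In edgeR, Kitl was higher than in the mean of the other classes in endothelial-like cells by 6.94 (SE 0.64, adjusted p = 3.19e-07), in mesothelial-like cells by 5.87 (adjusted p = 0.000124) and in fibroblast-like cells by 4.55 (adjusted p = 0.00103), beside 12.0%, 9.38% and 14.9% of all genes called higher in these classes. The mesothelial-like class has 1 sum, of 16 cells of tumor 1, and the spread in its test also comes from other classes.

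Of the ALK ligands, Alkal1 had 22 of its 25 UMIs in plasmacytoid dendritic-like cells, 20 of them in tumor 1, at 21.9 CPM (13.3 to 33.7). Alkal2 had 1 UMI in a neutrophil-like and 1 in a fibroblast-like cell. Mdk and Ptn encode midkine and pleiotrophin, which have been proposed to act through ALK. Mdk was at a mean of 138 ± 63.1 (SD, n = 3 tumors) in tumor-like cells, from 41, 316 and 666 UMIs in tumors 1, 2 and 3. Mesothelial-like cells of tumor 1 were at 137 (107 to 172), above the tumor-like cells of the same tumor, whose interval was 47.3 to 89.5. Ptn was highest in endothelial-like cells, at 186, 10.5 and 304, where edgeR called it higher by 5.01 on the log2 scale (SE 1.07, adjusted p = 0.00156).

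Of the neurotrophin genes, Bdnf had 129 of its 170 UMIs in tumor-like cells, at 16.1, 23.0 and 19.9 CPM in tumors 1, 2 and 3. Its highest class mean was in mesothelial-like cells, which reached 10 cells in tumor 1 alone, at 28.1 (15.8 to 46.4), with 11 of 15 UMIs in 1 cell. Ntf5 was highest in mesothelial-like cells, with 3 UMIs, and Ntf3 in T cell-like cells, with 1.

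Of the GDNF family ligands, Nrtn had 65 of its 90 UMIs in tumor-like cells. Its highest mean level was in B cell-like cells, at 35.3 ± 40.8 (SD, n = 3 tumors), from 3 UMIs. That level was 0 in tumor 1, which held 205 of the 245 B cell-like cells. It was highest in tumor 2, at 79.9 in 15 cells. Gdnf was highest in fibroblast-like cells, with 2 UMIs, and Artn had 2 UMIs, both in fibroblast-like cells. Pspn had 0.

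The ligands, further receptors, adaptors and targets of the ERK pathway made up 51 genes, of which 26 passed the filter. In tumor-like cells edgeR called 0 of the 26, with 6 at an unadjusted p under 0.05, beside 3.30% of all genes called higher and 0.840% lower. The count depended on the test, and the genes are named here after their values were seen. DESeq2 called Ncam1, Bex3 and Pik3r1 higher and Dusp6, Irs2 and Kitl lower, or 3 of 26 in each direction, where it called 20.6% of all genes higher and 13.2% lower. With the replicate block edgeR called the same 3 genes higher and 0 lower, beside 12.5% and 2.89% of all genes. The median log2 differences of the lists in tumor-like cells were 1.89 for 5 ligands, 0.96 for 3 receptors, 0.45 for 13 adaptors and relays and -1.02 for 5 ERK pathway targets, against 0.05 over all genes.

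Against the pooled other cells, where 7.34% of 10286 genes were called higher and 25.2% lower, edgeR called 3 of 30 pathway genes higher and 10 lower in tumor-like cells. Higher, among genes named here in the same way, were Gfra4, a further GDNF family co-receptor (2.08 on the log2 scale, adjusted p = 0.0327), Ncam1 and Pik3r1. Lower were, among others, Dusp6, a phosphatase that dampens ERK signals (-5.39, adjusted p = 0.00105), and Kitl (-4.83, adjusted p = 0.00111). With the replicate block edgeR called 7 of the 30 higher, Mdk, Etv1, Bex3 and Maged1 in addition, and 10 lower, beside 11.8% and 26.5% of all genes. In endothelial-like cells 9 of the 26 genes were called higher, and in fibroblast-like cells 9 of 26, beside 12.0% and 14.9% of all genes. With the replicate block the count in fibroblast-like cells was 14 of 26 higher and 1 lower, beside 18.1% and 0.926% of all genes. Spry1, Spry4 and Spred1, feedback inhibitors of ERK signals, were called higher in both.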

How the data were processed

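Single-cell libraries (10x Genomics) of 3 mouse tumors were analysed. The submitters' processing notes name Cell Ranger 3.1.0, Seurat 3.1.5 and mm10. The deposited raw files hold UMI counts per gene and barcode, without scaling. The other deposited values are the natural log of 1 plus a count that the authors corrected for ambient RNA, for barcodes left after they removed doublets and set limits per tumor. Those barcodes were the kept cells, with 12628163, 2740537 and 5215401 raw UMIs in tumors 1, 2 and 3. No doublet caller was run again.

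Kept cells were integrated and clustered in Seurat 5.3.0 (2000 variable genes, 30 dimensions, resolution 1) without the receptors and pathway genes. A cluster was named when at least 3 markers of a list were 2 times higher and in at least 10% of its cells. For each class of a tumor with at least 10 cells, raw counts were added up and tested in edgeR 4.0.16 (TMM, filterByExpr, quasi-likelihood test, Benjamini-Hochberg adjustment, threshold 0.05), each class against the unweighted mean of the others. Tumor-like clusters were tested likewise on sums of at least 20 cells. DESeq2 1.42.0 was an alternative, beside other resolutions, no integration, no filter, corrected counts, each tumor left out in turn, and a fit with tumors as replicate blocks. Scripts were tested on simulated counts. Many tumor-like calls of the unfiltered fit were unchanged genes there, so that its tumor-like calls are not used as support. Neither the fit of the tumor-like clusters nor calls in NK cell-like cells were simulated. Levels carry 95% Poisson intervals, and 3 UMIs set the floor.

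Classes of a tumor come from the same animal. Deviations from class means correlated with a median of 0.261 within a tumor (108 pairs) and -0.159 between tumors (219 pairs), over 8211 genes. Members and lists were chosen with earlier results of these data known. Named genes were the 9 receptors, each ligand with its highest class, up to 5 called genes per pathway list in tumor-like cells, and the 3 genes most like each receptor with at least 200 UMIs in kept cells. Only Gfra3 reached 200. Not every gene of the lists is reported here.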

Additional observations from a re-analysis of the deposited data

Results flagged for a closer look

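Receptor UMIs were also present in barcodes that the authors did not keep, which enter no comparison here. These 1343, 3106 and 3523 barcodes of tumors 1, 2 and 3 held 3689 Gfra3 UMIs, 1144 of Kit, 597 of Ntrk3, 566 of Ret, 195 of Alk, 178 of Ntrk2, 98 of Gfra2, 11 of Gfra1 and 10 of Ngfr. For all but Ngfr these counts exceeded those in kept cells, without regard to the total UMIs of either set. In CPM the order varied by gene and tumor. In CPM, Gfra3 was at 160 in the barcodes left out of tumor 2 against 57.7 in its kept cells, Kit at 38.1 against 10.2, and Alk at 6.65 against 1.09. In tumor 3, Alk was at 4.45 against 0.959. Ntrk2 was at 0.426 against 2.30 in tumor 1, 5.55 against 4.01 in tumor 2 and 4.72 against 4.60 in tumor 3. Gfra1 was at 1.92 against 0 in tumor 1 and 0.105 against 0.730 in tumor 2. What these barcodes hold, and their part in the counts of kept cells, was not tested.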

How the results depend on the processing

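The number of genes called in tumor-like cells, 340 in the fit as reported, depended on most settings. It was 1985 and 1768 at resolutions 0.5 and 2, 3342 without integration, 2777 with DESeq2, 1882 with sums of at least 20 cells, 7 with corrected counts and 59 to 1460 on leaving out 1 tumor, lowest without tumor 1. It was 4160 without the filter, and then 4077 with DESeq2, 3200 with corrected counts and 1173, 2758 and 1665 without tumor 1, 2 and 3. Against the pooled other cells it was 3344. With the tumor as a replicate block, which pairs classes of the same animal, it was 1261, 4450 without the filter and 3937 against the pooled other cells. The split of higher and lower calls moved from 271 and 69 to 1694 and 1083 with DESeq2, 2094 and 1248 without integration, and 755 and 2589 against the pooled other cells. In cluster 7, 493 calls became 1712 with the replicate block, 1761 with the block and no filter, 229 with DESeq2, and 24 to 1412 on leaving out 1 tumor. The share of tumor-like cells with a Gfra3 UMI was 2.10% at 500 UMIs per cell, 4.28% at 1000, 7.06% in corrected counts and 7.61% unthinned. Cells under 1000 UMIs were left out of the share at 1000. In endothelial-like cells the 1002 calls became 637 with corrected counts, 1645 without the filter and 1865 with the block and no filter, and lay between 717 and 1393 under the other settings. Of the receptors' differences, Ret in fibroblast-like cells (-1.54 without tumor 1) and Gfra3 in cluster 7 (-0.027 without tumor 2, against 1.70 without tumor 3, each leaving cluster 7 with 1 sum) changed direction on leaving out a tumor. For settings that changed a count, the cause was not tested. Alternatives with 2 choices together, the pooled comparison, the unthinned share and, for endothelial-like cells, all but DESeq2, the block and leaving out a tumor were chosen after seeing the data.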
